A study of Mus musculus with 18 samples.

Results

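Adipokines are proteins that fat tissue secretes into the blood, and 8 genes of this kind were taken by name: Lep, Adipoq, Retn, Cfd, Rbp4, Agt, Apln and Nampt. Of these, 7 had a probe set that carries their symbol alone, 1 probe set each, among 19937 genes named in this way. Cfd, the gene of adipsin, matched no such probe set and was not analysed here. The expression arrays covered 18 samples of fat from male mice of the C57BL/6J strain, aged 10 weeks and fed chow. Wild-type control mice gave 5 arrays of brown adipose tissue (BAT) and 4 of white adipose tissue (WAT), and mice overexpressing human FXR specifically in adipose tissue gave 5 of BAT and 4 of WAT. The labels name neither the promoter that drives the transgene, nor the WAT depot, nor whether both tissues came from the same mice, although the design text calls the samples biological replicates. The protocol text of control BAT 2 and control BAT 4 mentions a feeding period that the other labels do not mention.

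Leptin, the product of Lep, tells the brain how much lipid is stored, and adiponectin, from Adipoq, raises insulin sensitivity in liver and muscle. Resistin (Retn), the retinol carrier RBP4, the angiotensin precursor angiotensinogen (Agt), the vascular peptide apelin (Apln) and NAMPT, an enzyme of NAD synthesis that is also found outside cells as visfatin, are made by adipocytes along with other cell types. White adipocytes are the main source of leptin, and FXR, the farnesoid X receptor, is the nuclear receptor that senses bile acids.

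The question was whether raised FXR went with different adipokine expression in either tissue. Lep was higher with FXR in both tissues, 1.99-fold in BAT and 2.47-fold in WAT. Nampt was lower in BAT, by 1.39-fold, Adipoq was slightly lower in BAT, and Agt was lower in WAT, by 1.36-fold. Retn, Rbp4 and Apln passed the test in neither tissue. In BAT 3 of 7 adipokine genes passed, beside 15.8% of all genes tested, and in WAT 2 of 7 passed, beside 1.33% of all genes. In BAT the call was lost in 1 of 20 alternative fits for Lep, 2 for Nampt and 14 for Adipoq. In WAT it was lost in 6 of 16 for Lep and 7 for Agt. The adipokines and the gene lists below were chosen with earlier results of these data known, so counts beside these shares are descriptions. Every intensity is the authors' deposited value on a linear scale, every change is a log2 difference, FXR minus control, with the standard error of limma, and a gene passed at a Benjamini-Hochberg adjusted p under 0.05 over all 19937 genes.

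The promoters of Lep, Nampt and Agt are shown because these 3 genes had the largest changes that passed. Each sequence holds the 250 bases before the RefSeq start site in GRCm38.p6, 5′ to 3′ on the gene's strand, and capitals mark every match, on either strand, to any of 6 motifs, none of which overlap here: the nuclear receptor core site AGGTCA, the C/EBP palindrome TTGCGCAA, the GC box GGGCGG, the CCAAT box, the TATA box with the letters TATAAA and the E-box with the letters CACGTG. The windows are chr6:29059971-29060220 (+) for Lep, chr12:32820085-32820334 (+) for Nampt and chr8:124569707-124569956 (−) for Agt.
Lep: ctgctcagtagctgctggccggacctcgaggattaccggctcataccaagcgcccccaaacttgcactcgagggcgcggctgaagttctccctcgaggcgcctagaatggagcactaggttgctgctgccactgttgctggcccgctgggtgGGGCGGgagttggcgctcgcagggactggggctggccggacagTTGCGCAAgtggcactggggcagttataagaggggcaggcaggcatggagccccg
Nampt: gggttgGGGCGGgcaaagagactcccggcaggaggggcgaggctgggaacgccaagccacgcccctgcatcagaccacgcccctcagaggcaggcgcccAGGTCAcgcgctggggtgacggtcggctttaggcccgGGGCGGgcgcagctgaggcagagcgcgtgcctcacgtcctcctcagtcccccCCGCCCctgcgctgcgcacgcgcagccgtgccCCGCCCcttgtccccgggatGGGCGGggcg
Agt: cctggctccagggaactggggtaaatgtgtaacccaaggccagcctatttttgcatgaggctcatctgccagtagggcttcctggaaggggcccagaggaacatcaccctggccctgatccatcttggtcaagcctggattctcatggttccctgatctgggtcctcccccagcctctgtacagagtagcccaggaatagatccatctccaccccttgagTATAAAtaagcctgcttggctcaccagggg
In the Lep window a GC box lies 98 to 93 bases before the start and the C/EBP palindrome 55 to 48 bases before it. The palindrome was found in 54 of 32851 promoter windows of this length (0.164%), and the GC box in 32.7% of them. The Nampt window is 75.6% G and C, and holds 5 GC boxes and 1 AGGTCA, 151 to 146 bases before the start. AGGTCA was in 14.0% of all windows. The Agt window holds a TATA box 30 to 25 bases before the start, a motif found in 12.4% of windows. CCAAT, found in 33.8% of windows, occurs in none of these 3, and neither does the E-box, found in 6.02%. The inverted repeat of the core site with 1 base between its arms (IR1), the arrangement FXR is best known to bind, was found in 2 of all windows and in none of these 3. A match describes letters only, and its absence from a window of this size says nothing about binding elsewhere.

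Lep, the hormone gene, was the adipokine with the largest genotype difference in both tissues. In control BAT its intensities were 99.2, 81.8, 99.2, 99.3 and 97.8 on arrays 1 to 5. In FXR BAT they were 366, 134, 162, 144 and 218. Every FXR BAT array was above every control BAT array, and FXR BAT 1 was the highest. The change was 0.99 ± 0.23 (n = 5 and 5, 95% interval 0.48 to 1.5, adjusted p = 0.0143, limma). Control BAT arrays read Lep at 1.61 to 1.98 times their own 1% quantile, near the dim end where changes are compressed. Skeletal muscle markers were high on FXR BAT 1, 2 and 4, of which 2 and 4 had the lowest Lep readings of FXR BAT. Without these 3 muscle-rich arrays the Lep change was 0.97 (adjusted p = 0.00175, limma). Without control BAT 2 and 4, the arrays with the feeding note, it was 0.94 and no longer passed (adjusted p = 0.0992, limma). Over all 20 alternatives its change in BAT lay between 0.76 and 1.12.

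In WAT the Lep intensities were 371, 415, 753 and 453 on the control arrays and 1478, 912, 1251 and 1159 on the FXR arrays. The groups did not overlap, and control WAT 3 stood closest to the FXR arrays. The change was 1.30 ± 0.22 (n = 4 and 4, 95% interval 0.80 to 1.80, adjusted p = 0.0323, limma). With single arrays left out it lay between 1.18 and 1.52, and the call was lost without control WAT 1, 2 or 4 or without FXR WAT 1, 3 or 4. In those 6 fits the adjusted p lay between 0.0695 and 0.109 (limma), while 49 to 181 genes passed in place of 265. The WAT and BAT changes of Lep differed by 0.31 ± 0.35 (95% interval -0.43 to 1.05, adjusted p = 0.704, limma), so no difference between the tissues was shown, and the interval allows one of either sign.

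**Figure D1:**
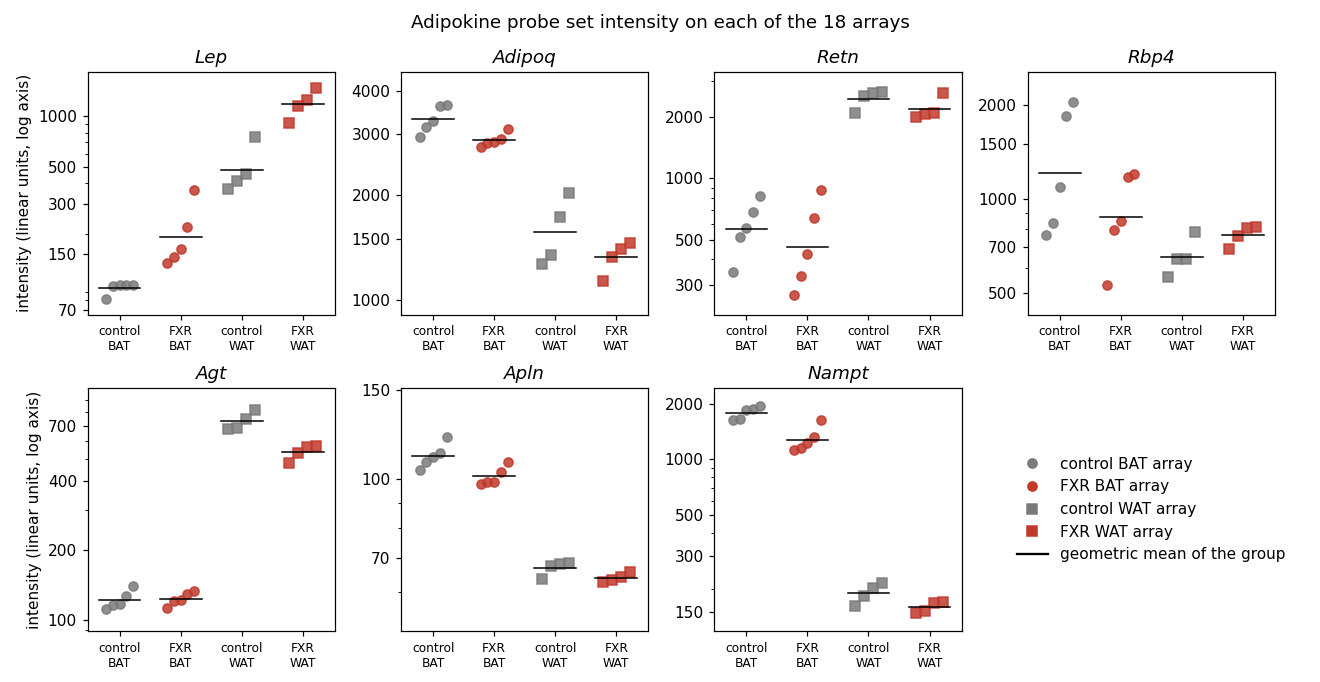
Intensity of each adipokine probe set (vertical axes, linear units on a log scale) in control BAT and FXR BAT (5 arrays each) and control WAT and FXR WAT (4 arrays each). Each point is 1 array and each bar the geometric mean of its group. Lep shows both FXR groups clear of their controls, Agt shows this in WAT alone, and the BAT arrays of Retn and Rbp4 are widely spread.

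Adipoq encodes adiponectin, which circulates as multimers built in the endoplasmic reticulum. Its intensities were 3273, 3629, 3158, 3634 and 2941 in control BAT and 2826, 2915, 3115, 2843 and 2762 in FXR BAT. The groups overlapped through FXR BAT 3, which was above the lowest control, and the other 4 FXR arrays were below every control. The change of -0.20 ± 0.06 passed narrowly (1.15-fold, adjusted p = 0.0487, limma). It kept its sign in all 20 alternatives but passed in only 6, and under quantile normalization it shrank to -0.03 (adjusted p = 0.838, limma). In WAT the intensities were 1267, 1732, 2029 and 1345 in controls and 1404, 1329, 1456 and 1130 with FXR. The change there was -0.24 ± 0.15 (95% interval -0.58 to 0.10, adjusted p = 0.588, limma), within the spread of the controls.

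Of 7 genes for adiponectin assembly and secretion, 1 was higher in FXR BAT, 2 were lower and 4 did not pass, with a median change of -0.12 beside 0.01 over all genes. Of all genes tested, 7.01% were called higher and 8.75% lower in BAT with the values as deposited and all BAT arrays. Only list counts for BAT from that fit stand beside these shares. That fit called 3142 genes, quantile normalization called 2424 and median centring 4852. Without the muscle-rich arrays 1913 genes were called, and without the arrays with the feeding note 1416. List counts under these alternatives thus have other shares of all genes beside them. The glycosyltransferase gene Mgat1 fell by 0.12 and the oxidase gene Ero1a, which helps form disulfide bonds, fell by 0.30. The lysyl hydroxylase gene Plod3 was higher by 0.15. Without the 3 muscle-rich arrays 0 of 7 passed in BAT, with 1 higher and 0 lower without the arrays with the feeding note. In WAT 0 of 7 passed in limma, and 3 had an unadjusted p under 0.05. Of all genes 1.33% passed in WAT, and each list count of 0 for WAT, here and below, is near that share. The share of all genes at an unadjusted p under 0.05 is not given here, so such counts have no share beside them.

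Retn, the gene of resistin, which opposes insulin action in mice, had the widest range within a group of the 7 adipokine genes, in FXR BAT. Its intensities there were 570, 686, 815, 513 and 346 in controls and 638, 873, 268, 426 and 331 with FXR. The highest FXR array was 3.26-fold above the lowest, and the groups overlapped across nearly their whole range. The change was -0.28 ± 0.32 (95% interval -0.99 to 0.42, adjusted p = 0.639, limma), and -0.92 without the muscle-rich arrays (adjusted p = 0.0694, limma). In WAT the arrays were close together, at 2651, 2527, 2074 and 2607 in controls and 2069, 2608, 1995 and 2081 with FXR. FXR WAT 2 lay among the 3 upper controls and the other 3 FXR arrays near the lowest control, and the change was -0.17 ± 0.10 (95% interval -0.40 to 0.06, adjusted p = 0.559, limma).

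Rbp4 carries retinol in the blood and is made by liver as well as fat. Control BAT read 836, 1097, 2046, 765 and 1844, and FXR BAT read 794, 1205, 532, 849 and 1177. Control BAT 3 and 5 were far above the other controls, a 2.68-fold range within 1 group. The change of -0.48 ± 0.31 did not pass (95% interval -1.15 to 0.20, adjusted p = 0.365, limma), and it was -0.75 without the arrays with the feeding note (adjusted p = 0.269, limma). Summed hepatocyte marker intensity was 3180 on control BAT 3, 1368 on control BAT 5 and between 1518 and 3017 on the other BAT arrays, and its part in the Rbp4 values was not tested. In WAT Rbp4 read 643, 564.1, 641 and 783 in controls and 809, 816, 693 and 764 with FXR. The change there was 0.23 ± 0.09 (95% interval 0.02 to 0.45, adjusted p = 0.349, limma) with overlapping groups.

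Of 16 genes for retinol transport and use, 0 passed in BAT and 0 in WAT in limma, beside 15.8% and 1.33% of all genes. An unadjusted p under 0.05 was reached by 6 in BAT and 4 in WAT (limma). Under quantile normalization 1 was called higher in BAT and 1 in WAT, and under median centring 2 were called lower in BAT. Aldh1a1, which makes retinoic acid, differed by 1.00 ± 0.35 in BAT (adjusted p = 0.0776, limma). Rarg, a retinoic acid receptor, differed by 0.11 ± 0.04 (adjusted p = 0.0618). The median change of the list was 0.06 in BAT and 0.05 in WAT.

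Agt, the precursor that renin cuts to release angiotensin, was the adipokine with a difference between the tissues that passed. In WAT its intensities were 748, 815, 685 and 678 in controls and 534, 481, 566 and 572 with FXR. Every FXR array was below every control array, and the change was -0.44 ± 0.07 (95% interval -0.61 to -0.28, adjusted p = 0.0291, limma). This call was lost without control WAT 1, 2 or 4 and without FXR WAT 1, 2 or 4, with changes of -0.48 to -0.39 and adjusted p of 0.0546 to 0.0873 (limma). In BAT Agt was far lower, at 116, 127, 140, 111 and 116 in controls and 133, 130, 112, 120 and 122 with FXR. The BAT groups overlapped fully, with a change of 0.01 ± 0.07 (95% interval -0.13 to 0.16, adjusted p = 0.928, limma) whose sign turned in 9 of 20 alternatives.

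The WAT change of Agt minus its BAT change was -0.46 ± 0.10 (18 arrays, adjusted p = 0.0136, limma), with BAT readings at 2.17 to 2.80 times the 1% quantile, where changes are compressed. Of the 7 adipokine genes, Agt alone passed this test, beside 6.46% of all genes. It was called in 26 of 27 alternatives. Without FXR BAT 1, 2 and 4 the difference was -0.38 and did not pass (adjusted p = 0.0796, limma).

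Of 9 measured genes of the renin-angiotensin system, 2 were higher in FXR BAT, 1 was lower and 6 did not pass (15.8% of all genes passed), with a median change of -0.01. Ace, the angiotensin-converting enzyme, was higher by 0.53 and the aminopeptidase gene Anpep by 0.79. The neprilysin gene Mme fell by 0.40, and 0 genes of the list were lower without the muscle-rich arrays or without those with the feeding note. In WAT 0 of 9 passed in limma and 0 had an unadjusted p under 0.05. With 1.33% of all genes called in WAT, a count of 0 of 9 is near that share. The difference between the tissues passed for Anpep, at -0.69 ± 0.10 (adjusted p = 0.00116, limma).

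Apln, whose peptide dilates vessels through its own receptor, read low in BAT, at 1.91 to 2.38 times the 1% quantile of each array, and dim in WAT. Control BAT read 104, 121, 113, 108 and 110.5, and FXR BAT read 108, 98.7, 97.7, 98.9 and 104. FXR BAT 1 lay within the control range and the other 4 FXR arrays below it. The change was -0.13 ± 0.05 (95% interval -0.23 to -0.03, adjusted p = 0.0718, limma), and it passed in 5 of 20 alternatives. All 8 WAT arrays read Apln below 1.5 times their 1% quantile, between 62.7 and 68.4, so its WAT change of -0.06 ± 0.03 (adjusted p = 0.507, limma) is one between readings near background.

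Nampt, the rate-limiting enzyme of NAD salvage, was bright in BAT. Its intensities were 1622.5, 1873, 1853, 1937 and 1657.5 in controls and 1122, 1145, 1636, 1329 and 1226 with FXR. FXR BAT 3 reached the level of the lowest control, and the other 4 FXR arrays were below every control. The change was -0.48 ± 0.10 (95% interval -0.69 to -0.27, adjusted p = 0.00696, limma). FXR BAT 3 was also the FXR array with the least muscle marker signal, a sum of 2531. The sum was 8198 on FXR BAT 5, where Nampt was 1226, and 11120 on control BAT 3, where it was 1853. The part of muscle in the Nampt values was not tested. Without FXR BAT 1, 2 and 4, which leaves FXR BAT 3 and 5, the change was -0.33 and did not pass (adjusted p = 0.105, limma). Without control BAT 2 and 4 it was -0.42 (adjusted p = 0.0718, limma). In WAT Nampt read 163, 216, 203 and 184 in controls and 149, 153, 171 and 168 with FXR. The groups overlapped through control WAT 1, and the change of -0.25 ± 0.09 did not pass (95% interval -0.45 to -0.06, adjusted p = 0.247, limma).

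Of 17 genes of NAD metabolism, 1 was higher in FXR BAT, 3 were lower and 13 did not pass (15.8% of all genes passed), with a median change of -0.11 beside 0.01 over all genes. The NAD kinase genes Nadk and Nadk2, which make NADP, fell by 0.39 and 0.34. Sirt3, a mitochondrial deacetylase that uses NAD, fell by 0.18. The transhydrogenase gene Nnt was higher by 0.89 ± 0.26 (adjusted p = 0.0391, limma), with 379, 231, 161, 450.5 and 168.5 on FXR BAT arrays 1 to 5. Its 3 high arrays were the 3 muscle-rich ones, and the part of muscle in its values was not tested. Without the muscle-rich arrays 1 gene of the list was called higher and 2 lower. Under quantile normalization or without the arrays with the feeding note 0 genes of the list were called higher. In WAT 0 of 17 passed in limma, with 4 at an unadjusted p under 0.05.

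**Figure D2:**
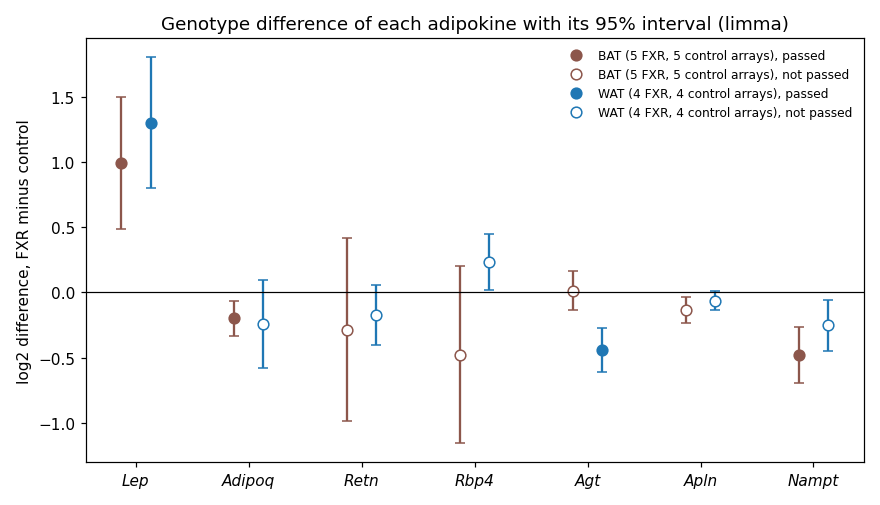
Log2 difference, FXR minus control, of each adipokine gene in BAT (5 and 5 arrays) and WAT (4 and 4 arrays), with the 95% interval of limma. Filled points passed an adjusted p of 0.05. Lep is above 0 in both tissues, Nampt and Adipoq are filled below 0 in BAT and Agt below 0 in WAT, and the BAT intervals of Retn and Rbp4 are the widest.

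Markers of other cells moved with the genotype in BAT. All 10 fibroblast markers and 11 of 12 macrophage markers were higher in FXR BAT, beside 7.01% of all genes. Their summed intensities did not overlap between genotypes (4811 to 7402 against 11895 to 13998 for fibroblasts, 1524 to 2079 against 2740 to 3413 for macrophages). Of 14 mature adipocyte markers, 12 were lower, with sums of 62091 to 72994 in control BAT and 49712 to 55971 in FXR BAT, beside 8.75% of all genes called lower. Under quantile normalization 3 of these 14 were called lower, and under median centring 13. Without the muscle-rich arrays or without those with the feeding note 5 were, while 1913 and 1416 of all genes passed in place of 3142. Of 11 brown adipocyte markers, 8 were lower and 1 was higher. Muscle marker sums were 37318, 26286 and 36807 on FXR BAT 1, 2 and 4 against 2278 to 11120 on the other 7 BAT arrays. The part of these shifts in the adipokine changes was not tested, and in such bulk tissue fewer cells of a type and less RNA per cell cannot be told apart.

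In WAT 0 of 12 macrophage and 0 of 10 fibroblast markers passed in limma, with 1 and 6 at an unadjusted p under 0.05. Fibroblast sums ran from 5683 to 8054 on control and from 7689 to 10601 on FXR arrays. Control WAT 3, the control with the most Lep, also had the highest fibroblast and macrophage sums of the controls, 8054 and 3171. On FXR WAT 4 the fibroblast sum was highest, 10601, with Lep at 1159. FXR WAT 1 had the most Lep, 1478, with a fibroblast sum of 8046. The part of these cells in the Lep values was not tested. Of the 14 mature adipocyte markers 1 was higher and 1 lower, beside 0.873% and 0.456% of all genes. Their sums were 21709 to 22408 in controls and 21494 to 23995 with FXR. Brown adipocyte markers were near background in WAT, with 8 of 11 dim on every FXR WAT array and 10 of 11 on every control WAT array, while in BAT 0 of 11 were. Epididymis markers summed to 755 on FXR WAT 1 and to 315 to 349 on the other WAT arrays; without FXR WAT 1 the Lep change was 1.19 (adjusted p = 0.07, limma).

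Other secreted factors of fat were also measured. Of 32 such genes, 11 were higher in FXR BAT, beside 7.01% of all genes. Another 2 were lower, beside 8.75% of all genes, and 19 did not pass. The median change was 0.14, beside 0.01 over all genes. The largest were the follistatin-like gene Fstl1, with 1.45 ± 0.14, the growth factor gene Igf1, with 1.04 ± 0.11, and Rarres2, the gene of the chemoattractant chemerin, with 0.93 ± 0.12 (adjusted p = 0.000422, limma). Lcn2, Ccl2, C1qtnf1, C1qtnf2, C1qtnf3 and C1qtnf7 were higher by only 0.14 to 0.24, and Lcn2 read 1.07 to 1.45 times the dim limit in BAT. In control BAT the mean log2 levels of Ccl2 (6.305), C1qtnf3 (6.306) and C1qtnf7 (6.409) were below that of Lcn2 (6.504). These genes thus also read near the dim limit. C1qtnf1 (6.772) and C1qtnf2 (6.669) read above Lcn2. Vegfa, the main vessel growth factor, fell by 0.49. Median centring gave 7 higher and 4 lower, while 4852 of all genes passed there, most of them lower. Without the muscle-rich arrays 6 were higher and 1 lower, and without the arrays with the feeding note 5 were higher and 0 lower. In WAT 0 of 32 passed in limma, with 9 at an unadjusted p under 0.05. Sfrp5 differed there by 1.40 ± 0.36 (adjusted p = 0.121, limma) and Lcn2 by 1.23 ± 0.46 (adjusted p = 0.294, limma). The tissue difference passed for Rarres2 at -1.01 ± 0.16 (adjusted p = 0.00166, limma) and for Igf1 at -0.79 ± 0.15 (adjusted p = 0.0044).

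Of 11 measured adipokine receptors, 2 were higher in FXR BAT, beside 7.01% of all genes, and 9 did not pass. Without the muscle-rich arrays 1 was higher and 1 lower, and without those with the feeding note 1 was higher. C3ar1, a receptor of complement that macrophages carry, was higher by 0.93 ± 0.05, beside the higher macrophage markers. Lepr, the leptin receptor, was higher by 0.15, but it read below or at the dim limit on every array, 61.4 to 75.5 in BAT. In WAT 0 of 11 passed in limma, with 2 at an unadjusted p under 0.05. Of 6 measured genes of the alternative complement pathway, in which adipsin acts, C3ar1 and C5ar1 (0.40) were higher in FXR BAT, and in WAT 0 passed, with 2 at an unadjusted p under 0.05.

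Of 11 regulators of adipokine genes, 6 were lower in FXR BAT, 1 was higher and 4 did not pass (8.75% of all genes were called lower), with a median change of -0.37. Ppargc1a, the coactivator of mitochondrial genes, fell by 0.78 and Cebpb, an early adipocyte transcription factor, fell by 0.65. Nr1h3, the oxysterol receptor LXR alpha, fell by 0.59, and Pparg, the master regulator of adipocytes, fell by 0.37. Cebpd was higher by 0.25. Of the 11, 4 were lower under quantile normalization, without the muscle-rich arrays or without those with the feeding note, and 8 under median centring. In WAT 1 of 11 passed, beside 1.33% of all genes: Pparg fell by 0.29 ± 0.05 (adjusted p = 0.0435, limma). Under a variance trend with robust estimates 0 of 11 passed in WAT.

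**Figure D3:**
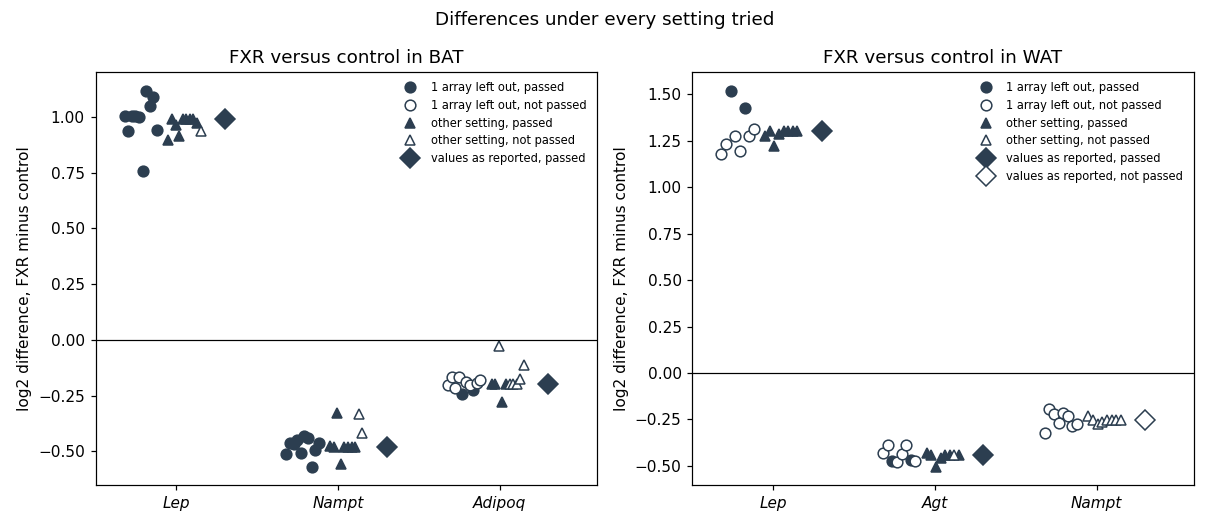
Log2 difference, FXR minus control, of Lep, Nampt and Adipoq in BAT and of Lep, Agt and Nampt in WAT under every alternative. Circles leave out 1 array, triangles are the other alternatives, diamonds the values reported, and filled symbols passed. Lep in BAT stays between 0.76 and 1.12 with 1 open symbol, Adipoq is mostly open, and open circles for Lep and Agt in WAT are fits that lost the call.

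The last comparison set control BAT against control WAT. Here 96.8% of all genes passed, 98.0% of them higher in BAT, and the median change of all genes was 0.59, so the 7 of 7 adipokine genes that passed say nothing about adipokines. Quantile normalization called 11558 genes with 40.8% higher in BAT, and centring each array on its median called 16540 with 43.6% higher. Lep, Retn and Agt were lower in BAT under all 3 scalings, by -2.32, -2.12 and -2.57 as deposited and by -3.48, -3.64 and -3.82 after quantile normalization. Nampt was higher in BAT under all 3, by 3.22 as deposited and 1.71 after quantile normalization. Adipoq was higher in BAT as deposited, at 1.08, and lower after quantile normalization, at -0.64, and Rbp4 turned from 0.89 to -0.70. Apln turned from 0.73 to -0.01. The order of the tissues was thus the same under these scalings for Lep, Retn, Agt and Nampt, and depended on the scaling for Adipoq, Rbp4 and Apln.

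**Figure D4:**
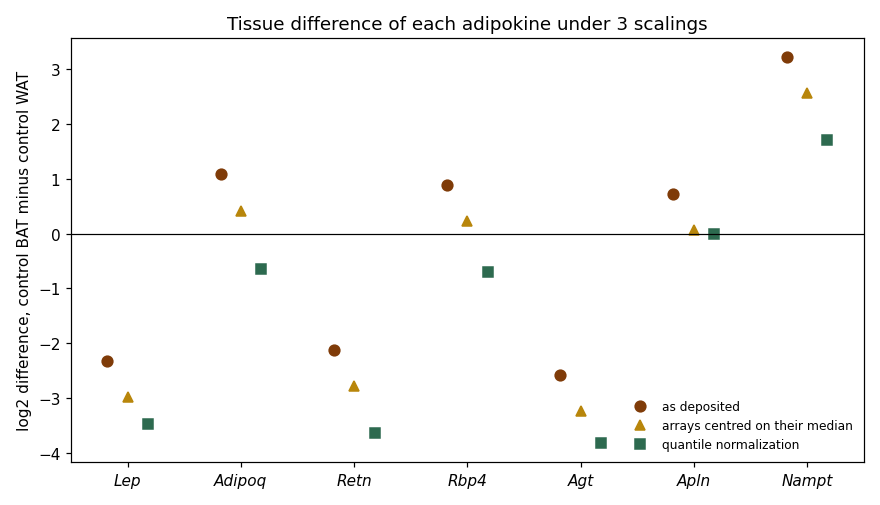
Log2 difference, control BAT (5 arrays) minus control WAT (4 arrays), of each adipokine gene with the values as deposited, with arrays centred on their median and after quantile normalization. Lep, Retn and Agt lie below 0 and Nampt above 0 under all 3 scalings, while Adipoq, Rbp4 and Apln lie on both sides of 0.

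Genes whose levels varied most like each adipokine were ranked by Pearson's r over the 18 arrays after each group's mean was subtracted, among 9605 genes above the median level. The arrays share group, tissue and cell makeup, so these values are descriptions. Lep varied most like Arrdc4 (r = 0.841) and Cald1 (0.828). Adipoq varied most like Isca1 (0.922) and Golga5 (0.897), Retn like the transferrin gene Trf (0.919) and Ndufb2 (0.915), and Nampt like Atf2 (0.916) and Mbtd1 (0.915). Rbp4 varied most like Nkx2-5 (0.837) and Pyy (0.818). Agt, with Plpp3 (0.772) and Nle1 (0.728), and Apln, with Nle1 (0.770) and Mief2 (0.757), had lower highest values.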

How the data were processed

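Labelled cDNA from 500 ng of total RNA was hybridised to 18 Affymetrix mouse gene arrays, per the labels. The authors deposited 1 linear intensity per probe set and array; background correction, summarisation and normalization are not given in the sources used here. Medians per array were 93.1 to 99.9 (BAT) and 60.5 to 61.7 (WAT). Of 34760 probe sets, 21640 carried 1 gene symbol in the platform annotation, 1321 carried several and 11799 had none listed. For 954 genes with several probe sets, the one with the highest mean log2 level was used. log2(intensity + 1) was fitted in R 4.3.3 with limma 3.58.1 (lmFit, eBayes), two-sided, without a replicate block, with p-values adjusted after Benjamini-Hochberg over 19937 genes. BAT used 10 arrays, WAT 8, the difference of both changes all 18, and the control tissues 9. The adipokines and the gene lists were chosen with earlier results of these data known. The rule for list members named up to 4 called ones with the smallest adjusted p, or 2 as values, and every other list member named was chosen after its values were seen. Dim means below 1.5 times an array's 1% quantile. Promoters came from RefSeq (GRCm38.p6); 7 of 8 members matched a probe set, all 8 a promoter. The fit was tested on simulated data. Alternatives were a pseudocount of 16, removal of dim genes, quantile normalization, median centring, the mean of probe sets, an intensity trend with robust variance, a replicate block, all 18 arrays, each array left out, and sets of arrays left out. The number of arrays limits the precision, and p-values rest on the spread between the labelled samples alone.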

Additional observations from a re-analysis of the deposited data

Results flagged for a closer look

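Lep on control BAT 2, at 81.8, lay apart from the other control BAT arrays (97.8 to 99.3), with a gap of 0.924 of the group's range. Retn on FXR WAT 2, at 2608, lay above the other FXR WAT arrays (1995 to 2081), with a gap of 0.842 of the range. These are 2 of 28 gene and group pairs looked at, where chance gives about 1 in 20. The genotype change of Agt differed between the tissues by -0.4557 on the log2 scale (WAT minus BAT, adjusted p = 0.0136, limma).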

How the results depend on the processing

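In BAT, Lep kept its call in 19 of 20 alternatives and Nampt in 18. Quantile normalization, pseudocount and probe set choice ended none of these calls. Without FXR BAT 1, 2 and 4, 1 adipokine gene and 1913 genes passed in BAT, and 0 passed for the difference between tissues (2 at an unadjusted p under 0.05, limma). Without control BAT 2 and 4, 0 adipokine genes (3 at an unadjusted p under 0.05, limma) and 1416 genes passed in BAT, and 727 for the difference between tissues. Median centring gave 4852 genes in BAT, 16% of them higher against 44.5% otherwise, and for the difference between tissues 86.9% higher against 68.7%. In WAT, 403 genes passed without dim genes and 411 with all 18 arrays in the fit, and leaving out single arrays gave 0 to 2 adipokine genes and 49 to 336 genes. Quantile normalization gave 11558 genes between the control tissues. The cause of these shifts was not tested. Signs turned only where no change had passed or between tissues: Agt in BAT under quantile normalization (-0.0397), median centring (-0.0640), without the muscle-rich arrays (-0.0588), without those with a feeding note (-0.0072) and with single arrays left out (-0.0170 to 0.0657). The tissue difference of Retn was -0.0589 under quantile normalization and -0.0848 to 0.3401 with single arrays left out. That of Adipoq was 0.0222 under median centring and -0.1434 to 0.0830 with single arrays left out. Between control tissues, quantile normalization gave -0.6436 for Adipoq, -0.7040 for Rbp4 and -0.0107 for Apln. Deviations of same-numbered arrays correlated at -0.49 to 0.28 (BAT) and 0.01 to 0.16 (WAT), at -0.08 to 0.26 between the control tissues and at 0.06 to 0.13 between the FXR tissues. Arrays with different numbers were not compared, so these values do not settle whether the numbers pair arrays. The fit of the difference between tissues treated the 18 arrays as independent. With the replicate block, 2741 genes passed in BAT, 237 in WAT and 1437 for the difference, Agt in WAT had an adjusted p of 0.0878 (limma), which left 1 adipokine gene called there, and Adipoq in BAT had 0.0636. Apln in WAT was dim and has no value without dim genes. Readings near the dim limit restrict what Apln, Lep and Agt in BAT can show, and the tissue difference of Agt includes that BAT change.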
